A study of Mus musculus with 12 samples.

Results

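The genes described here are 42 genes of DNA replication and S phase, a list of symbols that covers the machinery from origin licensing to chromatin copying. Each symbol matched 1 Ensembl identifier in the count files, and the 42 members stand among 40551 counted genes. All 42 had enough counts to be tested, together with 15070 genes in all. The data are total RNA-seq counts of 12 whole mouse livers, with 3 livers of each genotype. WT livers carried both genes intact. The livers labelled *Mcl1* KO came from mice in which an albumin-driven Cre deletes floxed *Mcl1* in hepatocytes (Mcl1Δhep), so that the other cell types of the organ keep the gene. The livers labelled *Sting1* KO came from *Sting1*-/- mice, which lack the gene in every cell, and those labelled *Mcl1* *Sting1* DKO (DKO below) carried both lesions. The study used mice of 2 and 12 months and places the Mcl1Δhep transcriptomes at the younger age, and which age the DKO and *Sting1* KO livers of this data set had is not given in the sources used here. Whether the WT and *Sting1* KO mice carried the Cre transgene or the floxed allele is likewise not given.

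A cell copies its genome once per division. Origins are licensed when the origin recognition complex, *Cdc6*, and *Cdt1* load the ring of *Mcm2* to *Mcm7* onto DNA, and they fire when *Cdc45* and the GINS complex turn that ring into an active helicase. Polymerases, the sliding clamp, and the enzymes of Okazaki fragment joining then copy both strands, ribonucleotide reductase and thymidylate enzymes supply the nucleotides, and CAF-1 and *Uhrf1* restore chromatin and DNA methylation behind the fork. Many of these genes are driven by E2F transcription factors. Adult hepatocytes divide rarely, and they can enter S phase again when liver tissue is lost.

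The start regions of these genes carry the sequence through which E2F factors are known to act more often than those of other genes, which is why they are shown. A window from 250 bases before to 50 bases after the start of the canonical transcript (GENCODE vM39, GRCm39) was searched on both strands for TTTCGCGC, TTTGGCGC, TTTCCCGC, and TTTGCCGC. One of these 4 octamers was present in 14 of the 42 members (33.3%) and in 614 of 21770 protein-coding genes (2.82%). In 5 members the match lay before the start and in 9 past it, and in 3 members 2 matches on opposite strands shared bases. The sequences of *Mcm4*, *Mcm5*, and *Mcm6* run through the matches before the start, and those of *Orc1*, *Cdc6*, and *Gins1* are windows of 30 bases at matches just past it, with the matches in capitals, 5′ to 3′ on the strand of the gene:
Mcm4, chr16:15455295-15455514, minus strand: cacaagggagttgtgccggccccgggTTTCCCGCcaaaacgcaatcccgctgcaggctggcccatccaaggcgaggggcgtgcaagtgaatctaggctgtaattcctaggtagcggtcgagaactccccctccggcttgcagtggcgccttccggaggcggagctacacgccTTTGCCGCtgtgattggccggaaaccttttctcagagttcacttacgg
Mcm5, chr8:75835944-75836035, plus strand: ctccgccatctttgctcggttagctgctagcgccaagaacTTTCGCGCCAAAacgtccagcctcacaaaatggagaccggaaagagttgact
Mcm6, chr1:128287453-128287592, minus strand: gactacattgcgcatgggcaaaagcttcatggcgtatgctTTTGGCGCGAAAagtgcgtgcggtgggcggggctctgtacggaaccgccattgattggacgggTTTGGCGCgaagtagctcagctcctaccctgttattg
Orc1, chr4:108436613-108436642, plus strand: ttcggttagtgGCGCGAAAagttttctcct
Cdc6, chr11:98798647-98798676, plus strand: gaaggctgaagtagagcggcTTTGGCGCga
Gins1, chr2:150751494-150751523, plus strand: ggttgagcctaTTTGGCGCCAAAgcgagga
The same search found the letters CCAAT, a box bound by NF-Y, in 24 members (57.1%) against 39.9% of all windows. The letters TTTGAA or TTCGAA, the element known from genes of mitosis, were found in 4 members (9.52%) against 18.8% of all windows. A match is a string of letters and was not tested as a binding site.

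Several facts of the libraries touch the results. Between 28826367 and 45266387 counts fell on genes per library. *Mcl1* was at 90.2, 102, and 104 CPM (counts scaled to a common library size, with TMM factors) in the 3 WT livers and at 27.9, 33.96, and 24.98 CPM in the *Mcl1* KO livers, and at 78.3, 90.1, and 76.97 CPM in the *Sting1* KO and 18.1, 22.9, and 25.97 CPM in the DKO livers, so the 2 genotypes with the deletion did not overlap the others. *Sting1* counts did not separate the *Sting1* KO livers (1.16, 1.73, and 2.702 CPM) from WT (2.53, 2.43, and 2.11 CPM), and which part of the gene the allele removes is not given in the sources used here, so its counts check nothing about that genotype. Y-linked transcripts were present in 3 libraries, WT replicates 2 and 3 and DKO replicate 1, and were absent or near 0 in the other 9. Small structured RNAs made up 0.172 to 0.369% of the counts in WT, and 0.283, 2.37, and 1.36% in *Mcl1* KO. Hepatocyte markers summed to 85410 to 140900 CPM in WT and 95300 to 129100 CPM in *Mcl1* KO, with 1 of 6 called by edgeR's quasi-likelihood test, *Serpina1c*, which was lower. Macrophage markers summed to 272 to 415 CPM in WT and 393 to 464 CPM in *Mcl1* KO (2 of 6 higher), stellate cell markers to 405 to 635 and 762 to 886 CPM (3 of 5 higher), and neutrophil markers to 1.79 to 2.81 and 6.68 to 19.0 CPM (3 of 5 higher, with *Ly6g* and *Mpo* too low to test). T and NK cell markers summed to 2.46 to 3.14 CPM in WT and 3.56 to 6.58 CPM in *Mcl1* KO, with *Cd3d* and *Trbc2* higher and *Cd3e* too low to test. No marker of cholangiocytes, endothelial cells, B and plasma cells, or erythroid cells was called. Skeletal muscle transcripts summed to 1155 CPM in *Mcl1* KO replicate 3, but to 0.476 and 1.04 CPM in replicates 1 and 2, against 0.739 to 6.29 CPM in WT. The high sum thus rests on 1 library. The only 1 of these 5 markers with enough counts to test, *Mylpf*, was called higher by edgeR but not by DESeq2, and its groups overlapped. In DKO against *Sting1* KO edgeR called no marker of these cell types, whereas DESeq2 called 3 of 5 stellate cell markers and 1 of 6 macrophage markers higher. The unadjusted p of edgeR was under 0.05 for 3 stellate cell markers and for 1 marker each of macrophages, hepatocytes, cholangiocytes, and erythroid cells. The summed stellate cell markers did not overlap (422 to 509 CPM in *Sting1* KO and 639 to 858 CPM in DKO). The part of these differences in the results on the members was not tested, and in whole livers more S-phase cells and more RNA per S-phase cell cannot be told apart.

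The comparison of *Mcl1* KO with WT livers asks what the loss of *Mcl1* in hepatocytes does on an intact *Sting1* background. Of the 42 members, 24 were higher in *Mcl1* KO livers, 1 was lower, and 17 did not pass an adjusted p of 0.05 (edgeR quasi-likelihood test, Benjamini-Hochberg over all tested genes). Over all tested genes, 10.8% were called higher and 9.43% lower. The log2 fold change was above 0 for 39 of the 42 members, and the median over the members was 0.96, against -0.0049 over all tested genes. In 33 members every *Mcl1* KO liver was above every WT liver, which held for 16.2% of all tested genes. Fold changes ranged from a log2 value of -1.99 for *Mcm10* to 4.08 for *Orc1*, and the value was above 1 for 20 members, with *Cdt1* and *Chaf1a* among them that did not pass the test. The count of 25 called members was 15 without *Mcl1* KO replicate 2 and 14 without WT replicate 2 or without WT replicate 3. It was 10 with Y-linked expression as a covariate, 5 with the content of small structured RNAs as a covariate, and 0 over the 9 libraries without Y-linked expression, where 1 WT liver is left, while the median over the members was 0.91, 0.93, and 0.94 in these 3 fits.

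**Figure D1:**
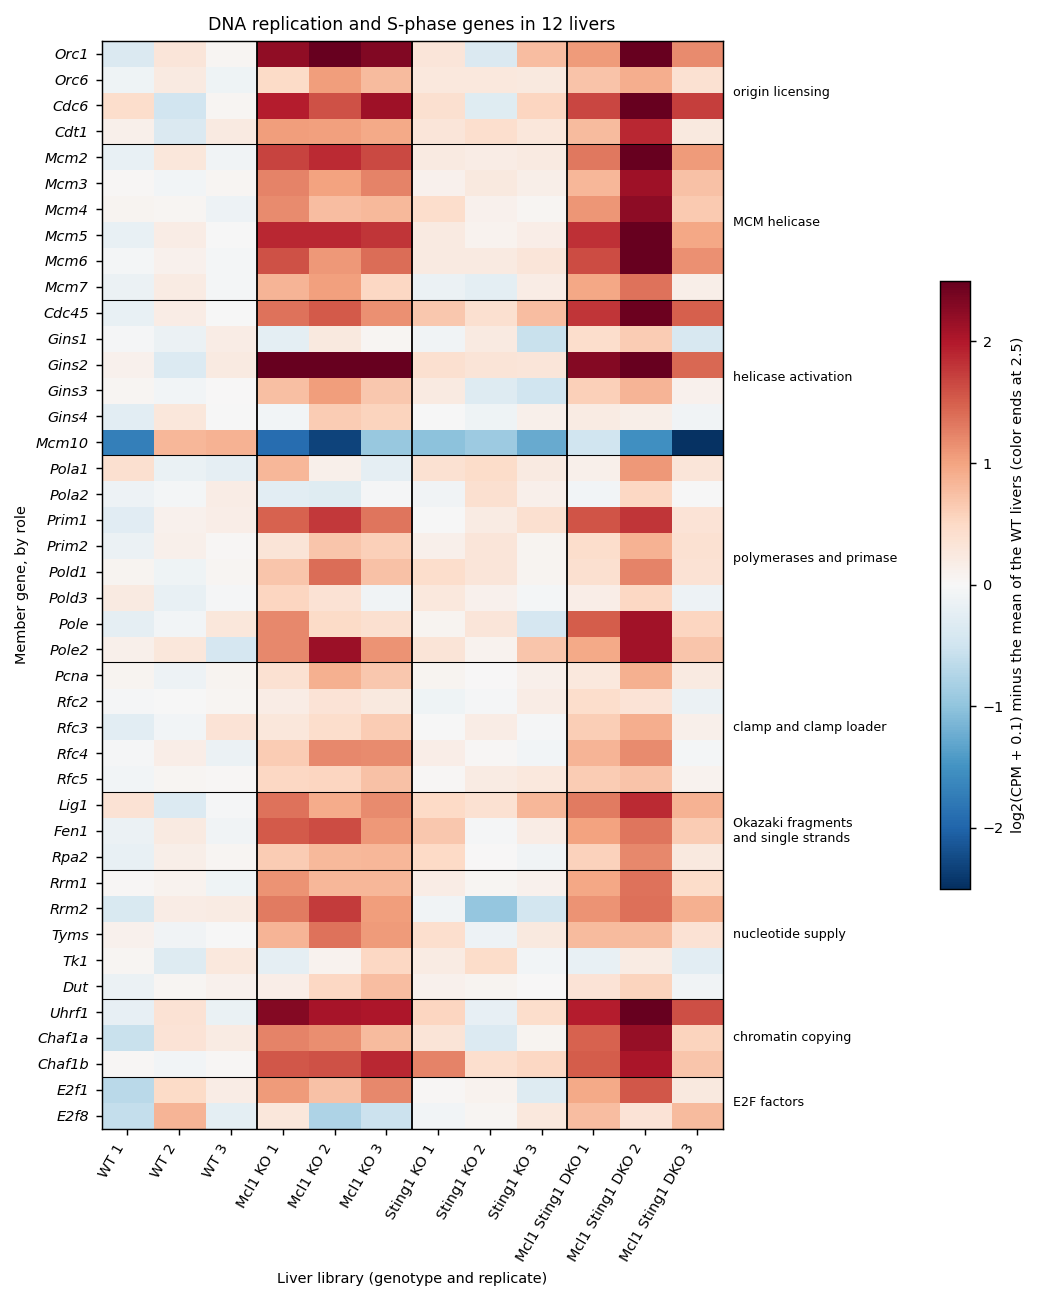
Level of each of the 42 members (rows, grouped by role) in each of the 12 livers (columns), as log2(CPM + 0.1) minus the mean of the WT livers, with red above and blue below WT. The *Mcl1* KO columns are red over most rows and alike among the 3 livers, DKO replicate 2 is the darkest column, and *Mcm10* is the row that is blue outside WT replicates 2 and 3.

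Of the 4 origin licensing genes, 3 were higher in *Mcl1* KO livers. *Orc1*, a subunit of the origin recognition complex that binds ATP, was nearly silent in WT, with 0, 2, and 1 counts in the 3 livers. The *Mcl1* KO livers held 24, 21, and 17 counts, or 0.496, 0.642, and 0.538 CPM, and all lay above the WT livers. The ratio of the summed counts, corrected for library size, was 18.6 with a 95% exact binomial interval of 6.08 to 92.7 that covers counting error only, and the fitted log2 fold change was 4.08 ± 0.99 (SE; adjusted p = 0.0166). In the *Sting1* KO and DKO livers, *Orc1* had 2, 0, and 5 and 5, 38, and 7 counts. *Cdc6*, the ATPase that loads the helicase with that complex, was at 0.422, 0.178, and 0.297 CPM in WT and 1.41, 1.07, and 1.58 CPM in *Mcl1* KO, a log2 fold change of 2.15 ± 0.50 (adjusted p = 0.0139). It stood at 0.407, 0.212, and 0.458 CPM in *Sting1* KO and 1.14, 3.31, and 1.18 CPM in DKO livers, so neither deletion group overlapped its control. *Cdt1*, which brings the helicase to the origin and is destroyed once S phase starts, gave 3.51, 2.46, and 3.73 CPM in WT and 6.703, 6.55, and 6.26 CPM in *Mcl1* KO. The 3 *Mcl1* KO livers lay above WT, but the log2 fold change of 1.01 ± 0.34 did not pass the threshold (adjusted p = 0.0558). *Cdt1* in *Sting1* KO was at 3.93, 4.299, and 3.91 CPM, and in DKO at 5.58, 12.1, and 3.803 CPM, where replicate 3 lay below the *Sting1* KO livers. The fourth gene, *Orc6*, rose by a log2 value of 0.80 ± 0.20 (adjusted p = 0.0199).

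Of the 6 genes of the *Mcm2* to *Mcm7* ring, 5 were higher in *Mcl1* KO livers, and *Mcm4* missed the threshold. No *Mcl1* KO liver overlapped WT for any of the 6. *Mcm5* was at 3.96, 5.16, and 4.49 CPM in WT and at 16.9, 16.9, and 15.8 CPM in *Mcl1* KO livers, a log2 fold change of 1.86 ± 0.33 (adjusted p = 0.00469). The 3 *Mcl1* KO livers lay close together. In *Sting1* KO livers *Mcm5* was at 5.296, 4.78, and 5.07 CPM, and in DKO livers at 16.3, 30.6, and 8.95 CPM, with replicate 2 far above the others. *Mcm2* gave 3.48, 4.83, and 3.73 CPM in WT and 13.01, 14.7, and 12.7 CPM in *Mcl1* KO, a log2 fold change of 1.75 ± 0.32 (adjusted p = 0.00495). Its *Sting1* KO values were 4.66, 4.51, and 4.63 CPM and its DKO values 10.1, 23.1, and 8.401 CPM. The order of the livers was the same for *Mcm2* as for *Mcm5* in DKO, with replicate 2 first and replicate 3 last. In WT livers *Mcm6* was at 8.47, 9.43, and 8.55 CPM and in *Mcl1* KO at 26.9, 18.9, and 23.3 CPM (log2 fold change 1.39 ± 0.30, adjusted p = 0.0103). It was at 10.3, 10.3, and 10.8 CPM in *Sting1* KO and 27.7, 55.3, and 19.5 CPM in DKO livers, again with replicate 2 far above the others. *Mcm3* and *Mcm7* rose by log2 values of 1.18 and 0.81 (adjusted p = 0.0207 and 0.0485), and the value of *Mcm4* was 0.94 (adjusted p = 0.0596). The ring genes with E2F letters before their start were *Mcm5* (1.86), *Mcm6* (1.39), and *Mcm4* (0.94). *Mcm3* (1.18) had such letters past the start, and *Mcm2* (1.75) and *Mcm7* (0.81) had none in the window searched.

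**Figure D2:**
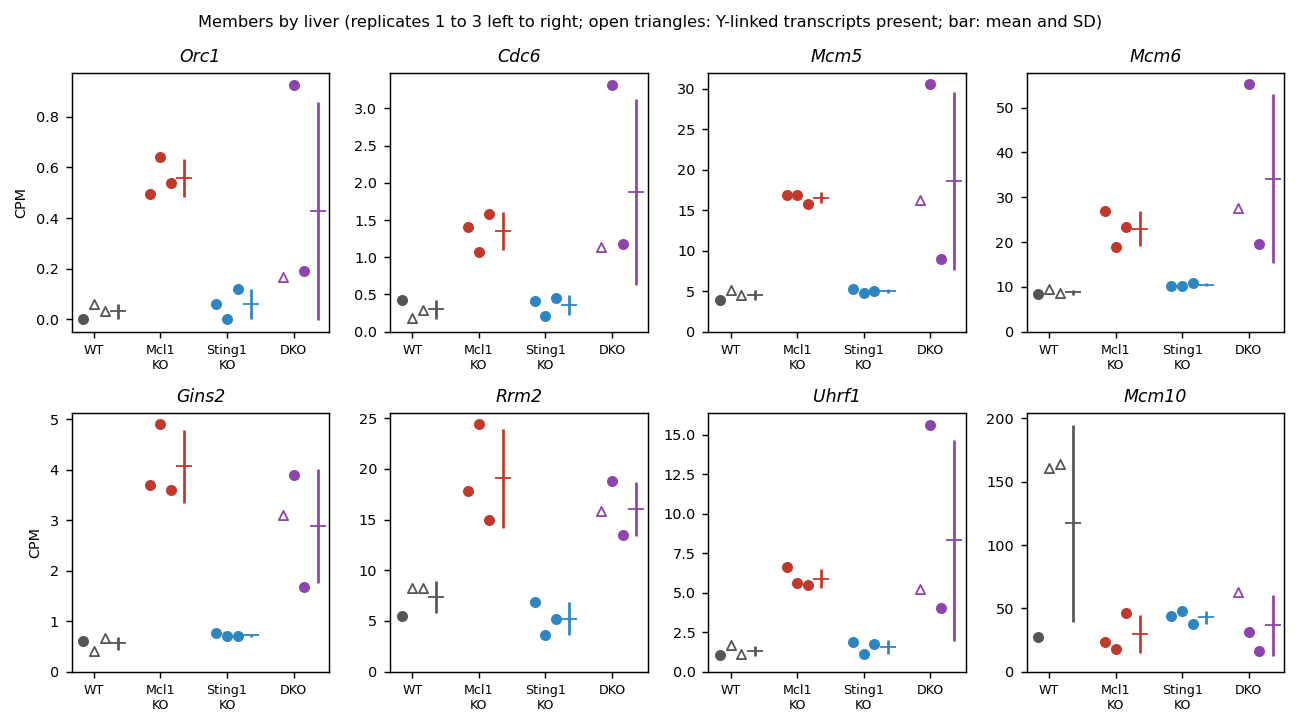
CPM of 8 members in each liver (points, replicates 1 to 3 from left to right within a genotype; open triangles mark libraries with Y-linked transcripts) with the mean and SD of each genotype beside them. *Orc1* to *Uhrf1* are higher in all 3 *Mcl1* KO than in all 3 WT livers. The DKO livers spread over a wider range than the *Mcl1* KO livers except for *Rrm2*, and *Mcm10* is high in WT replicates 2 and 3 (160 and 164 CPM).

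The genes that turn the ring into a working helicase did not move as 1 group. Of 6, 2 were higher in *Mcl1* KO livers, 1 was lower, and 3 were not called. *Gins2*, a subunit of the GINS complex, had the lowest adjusted p of all 42 members: it was at 0.607, 0.415, and 0.6604 CPM in WT and 3.703, 4.89, and 3.605 CPM in *Mcl1* KO, a log2 fold change of 2.85 ± 0.33 (adjusted p = 0.00111). The *Sting1* KO livers had 0.757, 0.716, and 0.6997 CPM and the DKO livers 3.11, 3.899, and 1.67 CPM, again with no overlap. Its 3 partners in the complex showed smaller differences, with log2 fold changes of 0.02 for *Gins1*, 0.93 for *Gins3*, and 0.39 for *Gins4*, none of them called (adjusted p = 0.969, 0.0535, and 0.168). *Gins1* was among the members with overlapping E2F letters at its start. *Cdc45*, which joins GINS on the helicase, was at 0.6596, 0.8898, and 0.759 CPM in WT and 2.11, 2.42, and 1.803 CPM in *Mcl1* KO (log2 fold change 1.45 ± 0.29, adjusted p = 0.00763). It was at 1.28, 1.03, and 1.38 CPM in *Sting1* KO and 2.87, 4.65, and 2.33 CPM in DKO, and every *Sting1* KO liver was above every WT liver.

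*Mcm10*, a factor that helps the helicase to start and despite its name no part of the ring, was the only member called lower. It was at 27.5, 160, and 164 CPM in WT, 23.8, 18.1, and 46.5 CPM in *Mcl1* KO, 44.2, 47.6, and 37.4 CPM in *Sting1* KO, and 63.3, 31.1, and 16.2 CPM in DKO. The groups overlapped, since WT replicate 1 lay within the *Mcl1* KO range. The log2 fold change was -1.99 ± 0.62 (adjusted p = 0.0422). *Mcm10* was at 63.3 to 164 CPM in the 3 libraries with Y-linked transcripts and at 16.2 to 47.6 CPM in the 9 without. With Y-linked expression as a covariate the log2 fold change was -0.31 (adjusted p = 0.688), and over the 9 libraries without it 0.09 (adjusted p = 0.943).

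Of 8 polymerase and primase genes, 3 were higher in *Mcl1* KO livers and 5 were not called. *Pole2*, the second subunit of the leading-strand polymerase, was at 0.528, 0.593, and 0.3302 CPM in WT and 1.22, 2.42, and 1.14 CPM in *Mcl1* KO (log2 fold change 1.70 ± 0.47, adjusted p = 0.0264). In *Sting1* KO it was at 0.611, 0.504, and 0.8203 CPM and in DKO at 1.002, 2.34, and 0.821 CPM, with replicate 3 just above the *Sting1* KO livers. *Prim1*, the catalytic subunit of primase, which lays down the RNA primers, had 1.9, 2.52, and 2.64 CPM in WT and 6.64, 8.23, and 6.01 CPM in *Mcl1* KO (log2 fold change 1.56 ± 0.32, adjusted p = 0.00864). *Prim1* in the *Sting1* KO livers was at 2.299, 2.71, and 3.11 CPM, and in DKO at 7.12, 8.26, and 2.98 CPM, where replicate 3 lay among the *Sting1* KO values. *Pold1*, the catalytic subunit of polymerase delta on the lagging strand, was at 3.51, 3.08, and 3.47 CPM in WT, 5.503, 9.03, and 5.63 CPM in *Mcl1* KO, 4.598, 4.17, and 3.52 CPM in *Sting1* KO, and 4.44, 7.99, and 4.32 CPM in DKO livers. Its log2 fold change in *Mcl1* KO was 1.0 ± 0.27 (adjusted p = 0.0255). The subunits of polymerase alpha showed little difference, with log2 values of 0.29 for *Pola1* and -0.20 for *Pola2* (adjusted p = 0.515 and 0.484). *Prim2*, *Pold3*, and *Pole* had log2 values of 0.56, 0.29, and 0.75, and were not called.

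The clamp and its loader showed small changes, with 3 of 5 called higher and log2 values between 0.26 and 1.05. *Pcna*, the sliding clamp that holds polymerases on DNA, was at 20.9, 18.4, and 20.9 CPM in WT and 26.3, 37.1, and 32 CPM in *Mcl1* KO livers, a log2 fold change of 0.66 ± 0.18 (adjusted p = 0.0276). It was at 20.9, 20.2, and 21.8 CPM in *Sting1* KO and 24.1, 37.1, and 23.4 CPM in DKO, and the lowest DKO liver was above the highest *Sting1* KO liver. *Rfc4*, a loader subunit, gave 2.51, 2.88, and 2.31 CPM in WT, 4.03, 6.03, and 5.95 CPM in *Mcl1* KO, 2.88, 2.6, and 2.44 CPM in *Sting1* KO, and 4.71, 5.95, and 2.46 CPM in DKO livers. In *Mcl1* KO it changed by 1.05 ± 0.29 (log2, adjusted p = 0.02702). *Rfc5*, another subunit, was at 7.99, 8.69, and 8.65 CPM in WT, 12.1, 12.2, and 14.04 CPM in *Mcl1* KO, 8.64, 9.74, and 10.2 CPM in *Sting1* KO, and 13.1, 13.9, and 8.95 CPM in DKO (log2 fold change in *Mcl1* KO 0.60 ± 0.17, adjusted p = 0.02695). *Rfc2* and *Rfc3* were not called.

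All 3 genes of Okazaki fragment joining and single-strand binding were higher in *Mcl1* KO livers, with no overlap. *Fen1*, the nuclease that trims the flap of each fragment, was at 3.64, 4.75, and 3.797 CPM in WT and 11.9, 12.8, and 8.63 CPM in *Mcl1* KO (log2 fold change 1.45 ± 0.24, adjusted p = 0.00363). *Fen1* in *Sting1* KO was at 6.49, 3.95, and 4.61 CPM, and in DKO at 8.19, 10.4, and 6.32 CPM, so *Sting1* KO replicate 1 was above DKO replicate 3. *Lig1*, the ligase that seals the fragments, had 3.93, 2.37, and 2.97 CPM in WT, 7.96, 5.81, and 6.99 CPM in *Mcl1* KO, 4.31, 3.98, and 5.43 CPM in *Sting1* KO, and 7.62, 11.2, and 5.58 CPM in DKO livers. *Lig1* rose in *Mcl1* KO by 1.16 ± 0.27 on the log2 scale (adjusted p = 0.0143). *Rpa2*, a subunit of the single-strand binding protein RPA, was at 4.83, 6.14, and 5.71 CPM in WT, 8.67, 9.73, and 9.96 CPM in *Mcl1* KO, 7.86, 5.57, and 5.19 CPM in *Sting1* KO, and 8.29, 12.8, and 6.59 CPM in DKO (log2 fold change in *Mcl1* KO 0.77 ± 0.24, adjusted p = 0.0422).

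Among the 5 genes of nucleotide supply, both subunits of ribonucleotide reductase and thymidylate synthase were higher in *Mcl1* KO livers, and *Tk1* and *Dut* were not called. *Rrm2*, the subunit of the reductase that is made in S phase, was at 5.51, 8.24, and 8.29 CPM in WT and 17.8, 24.4, and 14.96 CPM in *Mcl1* KO (log2 fold change 1.38 ± 0.26, adjusted p = 0.0058). *Rrm2* was at 6.84, 3.63, and 5.21 CPM in *Sting1* KO and at 15.8, 18.8, and 13.4 CPM in DKO livers, so the lowest DKO liver was well above the highest *Sting1* KO liver. *Tyms*, which makes thymidylate, gave 6.83, 5.99, and 6.27 CPM in WT, 11.6, 16.3, and 13.4 CPM in *Mcl1* KO, 8.497, 5.84, and 7.55 CPM in *Sting1* KO, and 11.1, 11.04, and 8.24 CPM in DKO. The change in *Mcl1* KO was 1.11 ± 0.19 (log2, adjusted p = 0.00349). *Rrm1*, the other reductase subunit, was at 13.6, 14.2, and 12.3 CPM in WT, 29.03, 23.7, and 23.6 CPM in *Mcl1* KO, 15.1, 13.8, and 14.3 CPM in *Sting1* KO, and 26.1, 34.3, and 18.4 CPM in DKO (log2 fold change in *Mcl1* KO 0.93 ± 0.19, adjusted p = 0.00839). The values of *Tk1*, the thymidine kinase of the salvage route, overlapped between all 4 genotypes and ranged from 14.9 to 26.4 CPM (log2 fold change 0.14 ± 0.22, adjusted p = 0.686).

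Of the 3 genes that restore chromatin after the fork, 2 were called higher in *Mcl1* KO livers, and the livers of the groups did not overlap for any of the 3. *Uhrf1*, which brings the maintenance DNA methyltransferase to hemimethylated sites, was at 1.08, 1.66, and 1.12 CPM in WT and 6.599, 5.599, and 5.47 CPM in *Mcl1* KO (log2 fold change 2.19 ± 0.46, adjusted p = 0.00878). It was at 1.89, 1.09, and 1.76 CPM in *Sting1* KO and 5.25, 15.6, and 4.05 CPM in DKO. *Chaf1b*, a subunit of the histone chaperone CAF-1, had 1.21, 1.13, and 1.22 CPM in WT, 3.66, 3.79, and 4.68 CPM in *Mcl1* KO, 2.94, 1.62, and 1.74 CPM in *Sting1* KO, and 3.58, 5.21, and 1.97 CPM in DKO livers. *Chaf1b* rose in *Mcl1* KO by 1.76 ± 0.34 on the log2 scale (adjusted p = 0.006698). Its partner *Chaf1a* gave 1.05, 2.08, and 1.88 CPM in WT, 3.91, 3.73, and 2.85 CPM in *Mcl1* KO, 2.04, 1.25, and 1.69 CPM in *Sting1* KO, and 4.68, 7.68, and 2.41 CPM in DKO, with a log2 fold change in *Mcl1* KO of 1.07 ± 0.39 that missed the threshold (adjusted p = 0.0724).

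Neither of the 2 E2F factors on the list was called. *E2f1*, an activator of S-phase genes, was at 0.765, 1.84, and 1.49 CPM in WT, 2.79, 2.203, and 3.07 CPM in *Mcl1* KO, 1.31, 1.38, and 1.01 CPM in *Sting1* KO, and 2.57, 3.97, and 1.53 CPM in DKO. The *Mcl1* KO livers lay above WT, with a log2 fold change of 0.98 ± 0.38 (adjusted p = 0.0819). *E2f8*, an atypical member of the family that represses such genes, was at 1.64, 4.63, and 2.11 CPM in WT, 3.08, 1.44, and 1.71 CPM in *Mcl1* KO, 2.42, 2.63, and 3.06 CPM in *Sting1* KO, and 4.38, 3.22, and 4.46 CPM in DKO livers. Its log2 fold change was -0.41 ± 0.38 (adjusted p = 0.457), and the groups overlapped. Of the 14 members with E2F letters at their start, 6 were higher in *Mcl1* KO livers with a median log2 fold change of 0.995, and of the 28 without, 18 were higher and *Mcm10* was lower, with a median of 0.93. In DKO against *Sting1* KO livers, 3 of the 14 were higher with a median of 1.18, and 5 of the 28 with a median of 0.65. Every DKO liver was above every *Sting1* KO liver for 10 of the 14 and 11 of the 28. That held for 11.5% of all tested genes, and 0.677% of them were called higher in DKO against *Sting1* KO. The difference between the 2 sets was not tested.

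**Figure D3:**
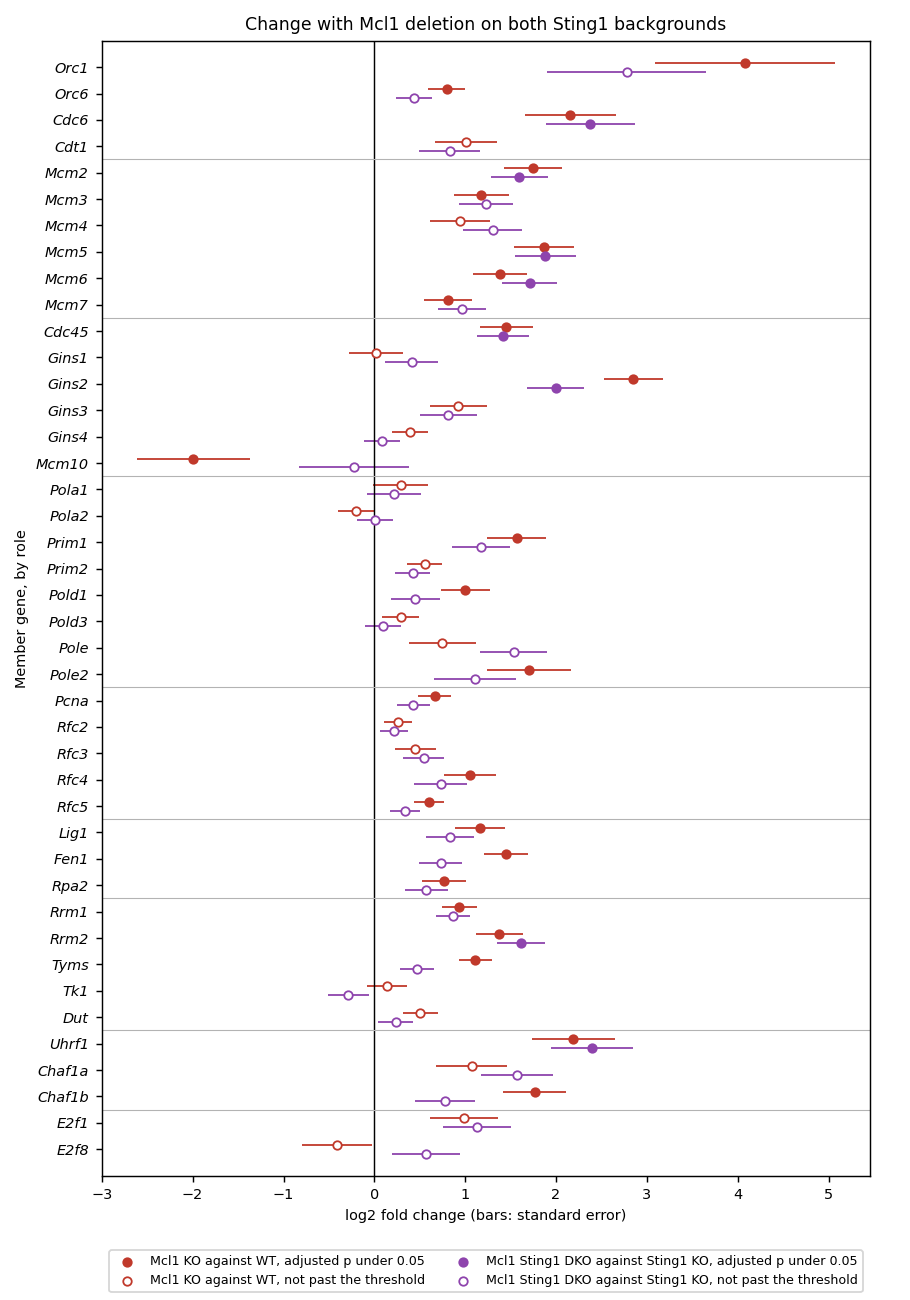
Log2 fold change with its standard error for each member in *Mcl1* KO against WT (red) and in DKO against *Sting1* KO (purple), with filled points past an adjusted p of 0.05. Most points lie right of 0 on both backgrounds, the filled purple points are the 8 genes from *Cdc6* to *Uhrf1* named in the text, and *Mcm10* is the filled point left of 0.

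The same deletion was compared on the *Sting1*-null background, with DKO against *Sting1* KO livers, which shares no library with the comparison above, although the fit estimates one spread over all 12. Of the 42 members, 8 were higher in DKO, none was lower, and 34 were not called. Over all tested genes, 0.677% were called higher and 0.126% lower in this comparison. The 8 were *Cdc6*, *Mcm2*, *Mcm5*, *Mcm6*, *Cdc45*, *Gins2*, *Rrm2*, and *Uhrf1*, and all 8 were also among the 24 higher in *Mcl1* KO against WT. Their log2 fold changes in DKO were 2.38 ± 0.49 for *Cdc6*, 1.59 ± 0.31 for *Mcm2*, 1.88 ± 0.33 for *Mcm5*, and 1.71 ± 0.30 for *Mcm6* (adjusted p = 0.0494, 0.0442, 0.0305, and 0.0305). For *Cdc45* and *Gins2* they were 1.42 ± 0.28 and 1.99 ± 0.32, and for *Rrm2* and *Uhrf1* 1.62 ± 0.26 and 2.40 ± 0.45 (adjusted p = 0.0448, 0.0268, 0.0272, and 0.03804). The 8 belong to licensing, the helicase and its activation, nucleotide supply, and chromatin copying. DESeq2 called 15 members higher, with 2 of the 8 polymerase and primase genes among them. The log2 fold change was above 0 for 40 of the 42 members, with a median of 0.79 against -0.0089 over all tested genes. In 21 members every DKO liver was above every *Sting1* KO liver, which held for 11.5% of all tested genes. None of the 42 was called without DKO replicate 1, without DKO replicate 2, or without any 1 of the 3 *Sting1* KO livers, 16 were called without DKO replicate 3, and 2 to 6 without any 1 of the WT or *Mcl1* KO livers. The median over the members stayed between 0.51 and 1.05 in these fits, and no member was called when only these 6 libraries were fitted.

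Neither the comparison of DKO with *Mcl1* KO livers nor that of *Sting1* KO with WT livers, which ask what loss of *Sting1* changes, called any of the 42 members. In DKO against *Mcl1* KO no tested gene at all was called (0%), 3 members against 20.6% of all tested genes had an unadjusted p under 0.05, and DESeq2 called no member and 4.77% of its genes. Log2 fold changes of the members ran from -0.49 for *Gins2* to 0.94 for *E2f8* with a median of 0.02, and the 3 members were *Cdc45* (0.64 ± 0.27), *Tyms* (-0.45 ± 0.18), and *E2f8* (0.94 ± 0.38; adjusted p = 0.219, 0.206, and 0.203). Leaving out *Mcl1* KO replicate 1 gave 2 called members, and leaving out any other single library gave none. In *Sting1* KO against WT, again 0% of the tested genes were called, 3 members against 5.45% of all had an unadjusted p under 0.05, and DESeq2 called no member and 0.264% of its genes. These 3 were *Chaf1b* (0.82 ± 0.34), *Cdc45* (0.68 ± 0.30), and *Mcm10* (-1.45 ± 0.61; adjusted p = 0.858, 0.884, and 0.858). The log2 fold change was above 0 for 33 of the 42 members and below 0 for 9. The median over the members was 0.17, against 0.0032 over all tested genes.

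The difference between the *Mcl1* effects on the 2 *Sting1* backgrounds was tested directly and called no member and no gene (0%). One member, *Tyms*, against 14.4% of all tested genes, had an unadjusted p under 0.05, and DESeq2 called no member and 1.15% of its genes. *Tyms* rose by 1.11 in *Mcl1* KO and had a log2 fold change of 0.47 in DKO, a difference of -0.64 ± 0.26 (adjusted p = 0.3197). The difference was 0.02 ± 0.46 for *Mcm5*, -0.15 ± 0.44 for *Mcm2*, 0.20 ± 0.62 for *Uhrf1*, and -0.86 ± 0.45 for *Gins2*. These standard errors leave room for differences of the size of the effects themselves in many members, so the lack of calls does not show that the effects were alike. For *Mcm5*, *Mcm2*, *Uhrf1*, and *Gins2* the adjusted p was 0.989, 0.894, 0.903, and 0.391.

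For the members, but not over all tested genes, the livers of 1 genotype differed from each other most in DKO. The coefficient of variation between the 3 livers had a median over the members of 14.7% in WT, 16.8% in *Mcl1* KO, 13.7% in *Sting1* KO, and 37.2% in DKO, while over all tested genes it was 14.5, 22.6, 13.1, and 15.3%. DKO replicate 2 was the highest of the 3 DKO livers for 37 of the 42 members and the highest of all 12 for 24, and DKO replicate 3 was the lowest DKO liver for 37. The ratio of replicate 2 to replicate 3 had a median of 1.97 over the members, from 0.721 for *E2f8* to 4.83 for *Orc1*, and 1.002 over all tested genes. In the *Mcl1* KO livers no replicate led so often, with replicates 1, 2, and 3 highest for 11, 20, and 11 members.

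A list of 12 genes of mitosis, which follows S phase, was ordered differently among the same livers. All 12 were higher in *Mcl1* KO than in WT, with log2 fold changes from 2.79 to 4.33 and a median of 3.42, led by the mitotic cyclins *Ccnb1* (4.33) and *Ccnb2* (4.19) and the kinase *Plk1* (4.16), and 8 were called in DKO against *Sting1* KO, with a median of 2.79. The DKO liver with the highest level of each of the 12 was replicate 1, not replicate 2. *Ccnb1* was at 0.6596, 0.386, and 0.495 CPM in WT, 12.99, 13.2, and 5.09 CPM in *Mcl1* KO, 0.9603, 0.743, and 0.386 CPM in *Sting1* KO, and 19.6, 6.701, and 3.04 CPM in DKO livers. Among the DKO livers replicate 1 was highest for it, whereas those of *Mcm5* and *Mcm6* given above peaked in replicate 2. Per exon length, the summed TPM (counts over exon length, set to one total in every library) of the 12 mitosis genes over that of *Mcm2* to *Mcm7* was 0.266 to 0.332 in WT and 0.340 to 0.614 in *Sting1* KO. It was 1.95, 1.60, and 0.839 in *Mcl1* KO and 2.45, 0.648, and 0.856 in DKO livers. Replicate 1 of either deletion group thus had the highest ratio of its group, and every liver with the deletion was above every liver without it.

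**Figure D4:**
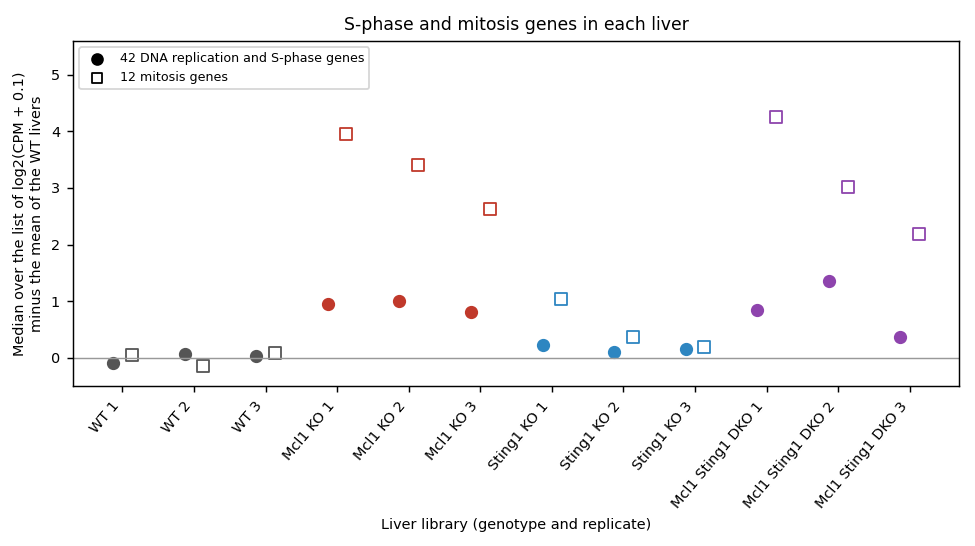
Median level of the 42 members (filled circles) and of the 12 mitosis genes (open squares) in each liver, as log2(CPM + 0.1) minus the mean of the WT livers. The members peak in DKO replicate 2 (1.35) and are even over the *Mcl1* KO livers (0.82 to 1.01), while the mitosis genes peak in DKO replicate 1 (4.25) and *Mcl1* KO replicate 1 (3.96).

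Levels of the members were compared with each other per exon length. In WT livers the mean over 3 livers ran from 0.0187 ± 0.0181 TPM (SD) for *Orc1* to 40.9 ± 26.5 TPM for *Mcm10*. The high mean of *Mcm10* comes from WT replicates 2 and 3, the WT libraries with Y-linked transcripts, and in *Mcl1* KO, *Sting1* KO, and DKO livers *Mcm10* was at 9.99 ± 4.61, 14.6 ± 1.86, and 14.0 ± 9.20 TPM. *Pcna* followed in WT at 30.1 ± 3.11 TPM, and *Gins4*, *Tk1*, *Rfc2*, and *Dut* at 10.2 ± 1.59, 10.1 ± 2.05, 9.27 ± 0.313, and 8.37 ± 0.377 TPM, and neighbours in this order lay within the larger SD of each other except *Pcna* against *Gins4* and *Rfc2* against *Dut*. *Gins4*, *Tk1*, *Rfc2*, and *Dut* were not called in *Mcl1* KO, and the members below 1 TPM in WT, which were *Uhrf1*, *Chaf1b*, *Gins3*, *Chaf1a*, *Cdc45*, *Gins2*, *Pole2*, *Cdc6*, and *Orc1*, included 7 of the 24 called higher. Among the latter, *Gins3* and *Chaf1a* were not called, whereas *Pcna* and *Rrm2*, far higher in WT, were. The WT mean enters both this order and the fold change, so they are not independent. In *Mcl1* KO livers *Pcna* was at 45.1 ± 2.504 TPM and *Rrm2* at 19.7 ± 4.65 TPM, from 7.90 ± 1.39 TPM in WT. The range among *Mcm2* to *Mcm7* was 1.82 to 6.75 TPM in WT and 5.87 to 14.9 TPM in *Mcl1* KO, although the 6 proteins form a ring of equal parts. The exon length used is that of all annotated transcripts of a gene together, so differences in TPM between genes also depend on the annotation.

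**Figure D5:**
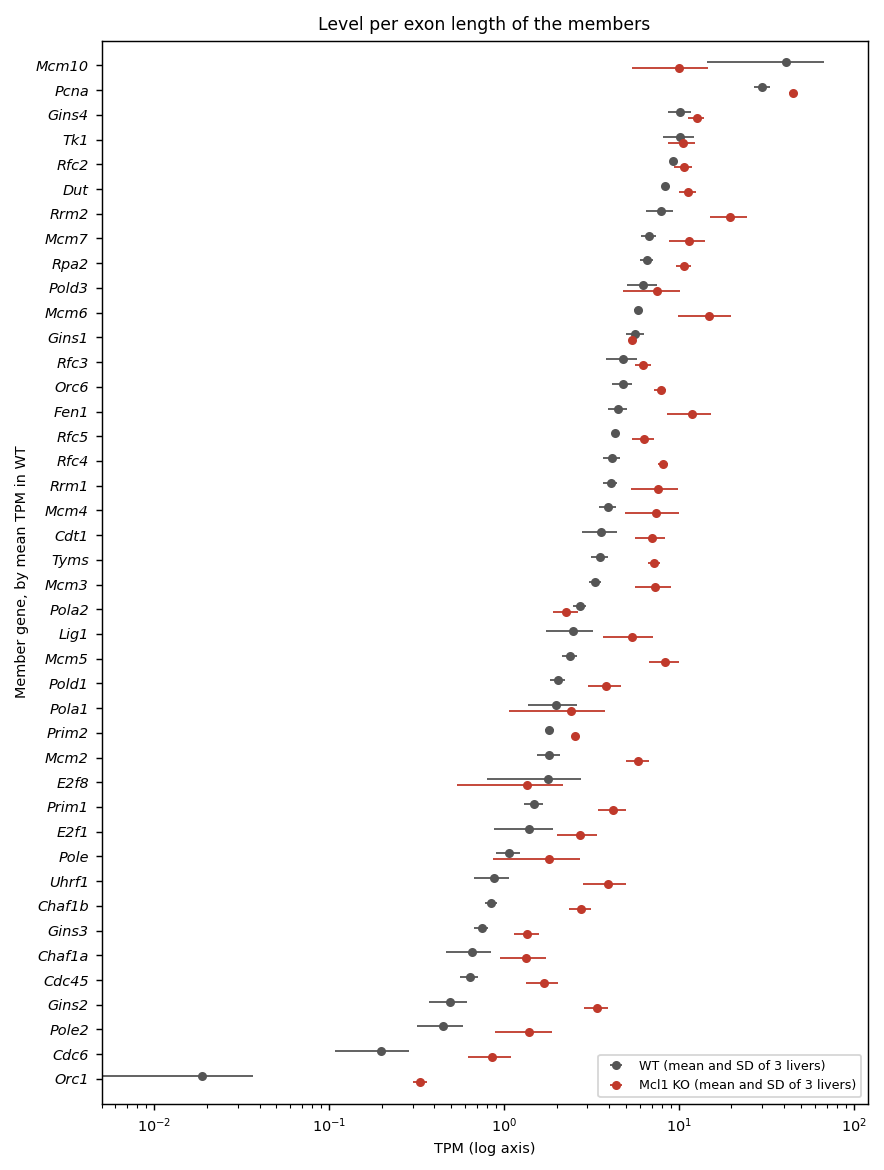
Mean and SD over 3 livers of the TPM of each member in WT (grey) and *Mcl1* KO (red), on a log axis and ordered by the WT mean. *Orc1* (0.0187 TPM in WT) lies further from its *Mcl1* KO value than *Tk1* and *Gins4* do from theirs. The WT mean enters both the order and this distance. The lower bar of *Orc1* in WT runs off the axis.

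Other genes of the same pathways were taken from 4 lists. Of these 58 genes, 15 were higher in *Mcl1* KO livers and 1 was lower, against the 10.8 and 9.43% of all tested genes given above, with a median log2 fold change of 0.38. Among 25 other replisome genes, edgeR called 5 higher and none lower (9 had an unadjusted p under 0.05), and DESeq2 called 6 higher and 1 lower. The 5 were led by *Chtf18* (2.84) and *Dscc1* (2.69), which load the clamp for sister chromatid cohesion, and *Clspn* (2.11), the fork checkpoint mediator. Among 13 genes of origin firing control 5 were higher, with *Ccna2*, cyclin A of S phase, at 3.45, *Ticrr*, which brings *Cdc45* to the helicase, at 2.93, and *Ccne1*, cyclin E, at 1.79. Of 8 other nucleotide enzymes, *Dctpp1*, which clears dCTP, was higher at 0.75, and *Shmt1*, the serine hydroxymethyltransferase of the cytosol that is also a gene of folate metabolism in hepatocytes, was lower at -0.80. Of 12 other E2F and chromatin genes 4 were higher, among them *E2f7*, the partner of *E2f8*, at 2.51, *Asf1b*, a histone chaperone, at 2.07, and *Hells*, a chromatin remodeler, at 2.04. In DKO against *Sting1* KO, 2 of the 58 were called, *Asf1b* and *Hells*, at 1.75 and 2.33 (adjusted p = 0.0445 and 0.0442).

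Exons of 21 members overlap exons of another annotated gene, and those of 17 a counted one, nearly always on the opposite strand, and whether the counting used the strand is not stated. The largest shares of a member's exon length were 67.3% for *Gins2* (with *Gse1*), 59.0% for *Fen1* (with *Gm10143*), 51.0% for *Chaf1a* (with *Ubxn6*), 43.3% for *Rrm2* (with *Gm59512*, a long noncoding RNA on the opposite strand that was not analysed here), and 41.4% for *Rfc5* (with *Wsb2*). Smaller shares lay on neighbours with far higher counts. These included *Rfc4* (16.5% with *Eif4a2*), *Cdc45* (10.6% with *Ufd1*), *Tk1* (9.45% with *Syngr2* and 1.81% with *Afmid*), and *Orc6* (8.45% with *Vps35*). The WT means of these neighbours were 196, 23.6, 65.4, 162, and 113 CPM in that order. *Rfc4*, *Cdc45*, *Tk1*, and *Orc6* had WT means of 2.565, 0.77, 18.8, and 3.35 CPM. Counts of all these members may hold reads of the neighbour and are uncertain to that extent. In *Mcl1* KO against WT, *Gse1*, *Ubxn6*, and *Wsb2* had log2 fold changes of -0.28, 0.37, and 0.14 and were not called, and *Gm10143* was too low to test. *Eif4a2*, *Ufd1*, *Syngr2*, and *Vps35* had values of -0.55, 0.06, -0.30, and 0.07 and were not called. *Afmid* was lower at -0.71 (adjusted p = 0.0364). *Prpf38a*, which overlaps 0.453% of the exons of *Orc1*, was higher at 0.56 (adjusted p = 0.0446). Its WT mean was 9.25 CPM, against 0.0308 CPM for *Orc1*. *Ap4m1*, which overlaps 6.2% of the exons of *Mcm7*, was lower at -0.64 (adjusted p = 0.0104). *Cops6*, on 6.13% of those exons, had a value of 0.14 and was not called. *Lat2*, which overlaps 24.3% of the exons of *Rfc2*, rose by 2.69 (adjusted p = 0.00418). *Gm2788* overlaps 20.2% of the exons of *E2f8*, with WT means of 15.6 and 2.79 CPM. Its log2 fold change was -1.07 in *Mcl1* KO against WT and 1.62 in DKO against *Mcl1* KO, not called in either. *E2f8* moved the same way (-0.41 and 0.94), so its counts are uncertain too.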

How the data were processed

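The authors deposited raw counts, the number of reads per Ensembl gene in each liver, without normalization. Total RNA was sequenced on an Illumina NovaSeq instrument, and the submitters' processing notes name STAR, featureCounts, and GRCm39, without versions. The annotation version and the use of strand are not given in the sources used here. Genotype and replicate number came from the labels. Nothing ties a replicate number to a litter or day. The p-values of the main fit set each difference against a spread between livers estimated over all 12 libraries, not only those compared. The members, role groups, and gene lists were chosen with earlier results of these data known.

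Counts were fitted with edgeR 4.0.16 (TMM, filterByExpr by genotype, glmQLFit, glmQLFTest) in R 4.3.3 over all 12 libraries without covariates, with Benjamini-Hochberg adjustment over 15070 tested genes and a threshold of 0.05. SE is the log2 fold change divided by the root of its F. DESeq2 1.42.0 was an alternative, and the other alternatives changed the size factors, the filter, the samples, or a covariate, or left out each library in turn. TPM used summed exon lengths of GENCODE vM39, which lacks 1018 counted identifiers (0.101% of the counts or less in any library). The 3 members of each role group with the largest absolute change in *Mcl1* KO against WT are given for every library, and of each pathway list the 3 called genes with the largest change are named. Other genes, such as the markers, were named where a result turned on them. Depth was 28826367 to 45266387 counts per library. Python 3.11.15, pandas 2.3.3, numpy 2.4.6, and matplotlib 3.10.9 were used.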

Additional observations from a re-analysis of the deposited data

How the results depend on the processing

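The median log2 fold change of the members in *Mcl1* KO against WT lay between 0.91 and 0.99 in every alternative, and in DKO against *Sting1* KO between 0.51 and 1.05. Counts of called members moved more. In *Mcl1* KO against WT the 25 became 10 with Y-linked expression as a covariate, 5 with the content of small structured RNAs as a covariate, 0 over the 9 libraries without Y-linked expression (an alternative chosen after seeing the data, with a lone WT liver that is assumed to vary like the other groups), and 14 to 29 when each library was left out in turn. In DKO against *Sting1* KO the 8 became 15 with DESeq2, 0 with only the groups compared, 3 and 4 with the 2 covariates, 0 over the libraries without Y-linked expression, and 0 to 16 with a library left out. DKO against *Mcl1* KO gave 0 to 2. The cause was not tested. The replicate block gave 23 and 5 called members in the 2 comparisons and called no member elsewhere. Deviations from the genotype mean correlated at -0.541 to 0.251 between same-numbered libraries, which cannot tell whether the numbers pair the samples. The -0.541 was between WT replicate 1 and DKO replicate 1, and each differed in Y-linked transcripts from the other livers of its genotype. The sign turned for *Mcm10* in *Mcl1* KO against WT without the Y-linked libraries (0.089) and in DKO against *Sting1* KO without DKO replicate 3 (0.15, in a range of -0.87 to 0.15 over the fits that left out 1 library), and for *E2f8* in *Mcl1* KO against WT with the covariates for Y-linked expression (0.044) and small structured RNAs (0.054), without WT replicate 2 (0.16, in a range of -0.83 to 0.16), and over the libraries without Y-linked expression (0.35). Of the 22 called members with values in every library, 12 passed the threshold in all 12 fits that left out 1 library in *Mcl1* KO against WT, and none of the 8 called did so in DKO against *Sting1* KO. *Orc1* had 3 counts over all WT livers, which limits the precision of its fold.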
